A study of Mus musculus with 50 samples.

Results

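The kallikreins and membrane-anchored serine proteases are mostly trypsin-like enzymes that act on secreted and cell-surface proteins, and they are read here together with the inhibitors that restrain them. Members were taken by symbol from the array annotation: every kallikrein (Klk), every gene of the Tmprss series, every numbered Prss gene, and St14, Hpn, Spint1, Spint2 and Spink5. The rule found 81 genes among 19938 genes with a single symbol, each measured by 1 probe set, and all 81 symbols were the same in RefSeq. They comprised 19 transmembrane proteases, of which 7 belonged to the Tmprss11 group, 38 Prss proteases, 21 kallikreins, of which 9 were of the Klk1-related kind, and 3 inhibitors. A further 4 probe sets carried a family symbol together with symbols of other genes and were not named.

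Gene expression had been profiled in the mammary glands of female CB6F1 mice that were either wild type (WT) or carried K14-DN-Clim, a transgene in which the Keratin 14 promoter drives, in basal epithelial cells, the LIM-interacting domain of the Clim cofactors with a nuclear signal and a Myc tag. The fragment acts as a dominant negative, since it binds LIM-domain proteins without bridging them. Terminal end buds (TEBs), the growing tips of the pubertal gland, and ducts were cut out of frozen sections by laser capture from mice of 4, 6, 8 and 10 weeks. Basal (CD29hi CD24+ Lin-) and luminal (CD29lo CD24+ Lin-) cells were sorted from 10-week-old mice.

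Of the 42 laser capture arrays, 10 were WT TEB, 10 WT duct, 11 DN-Clim TEB and 11 DN-Clim duct. The WT mice numbered 3, 3, 2 and 2 at 4, 6, 8 and 10 weeks and the DN-Clim mice 3, 2, 3 and 3, and the methods give 1 number of animals for both structures. Neither the methods nor the labels tie a replicate number to an animal, and TEB and duct samples that share a number are treated here as 1 mouse, with deviations from the group means that correlated over 0.1 in 20 of 21 such pairs (lowest -0.083). Where a group held 2 mice, both pairs give the same correlation by construction, so the 21 values are not all independent. The sorted set held 8 arrays, with 2 WT basal, 2 WT luminal, 2 DN-Clim basal and 2 DN-Clim luminal. Mice of an age were littermates, so that age and litter cannot be told apart. Conflicts stand in the labels: the second WT ducts of the 8-week and 10-week mice were described as TEB although titled duct, and the titles of the luminal samples gave the CD29hi gate of basal cells.

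Values are array intensities, and a difference is in log2 units between group means unless said otherwise. The median intensity was 184 to 221 on the laser capture arrays and 119 to 130 on the sorted arrays, apart from WT TEB replicate 1 at 6 weeks, whose median was 156 and whose correlations with the remaining captured samples centred on 0.815, where all the rest centred on 0.930 to 0.970. In the sorted cells all 12 of the 12 basal markers tested were higher in basal and all 12 of the 12 luminal markers tested were higher in luminal cells, in both genotypes. The number of arrays per group limits the precision of every value below.

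Proteases of this kind are made as inactive zymogens and switched on by cleavage. The best known route in epithelia runs from matriptase (St14), a protease anchored in the membrane, and prostasin (Prss8), tethered by a lipid anchor, to substrates such as sodium channels, protease-activated receptors and growth factor precursors, under the control of the Kunitz-type inhibitors HAI-1 (Spint1) and HAI-2 (Spint2). In the epidermis matriptase, kallikreins and their inhibitor LEKTI (Spink5) govern the shedding of the cornified layer, and members of the Tmprss11 group are best known from stratified epithelia of the airway, mouth and skin.

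Most of the family was dim in the mammary gland. In the laser capture set 36 of the 81 members reached an intensity of 200 on any array, the level that the study required for a gene to be kept, and 6 of the 36 did so on a single array. In the sorted cells 27 members reached the corresponding level of 150, and 41 of the 81 reached neither. Only 8 members were at 200 or more on all 42 laser capture arrays, namely St14, Hpn (hepsin), Tmprss2, Tmprss13, Prss8, Prss23, Spint1 and Spint2. Members that reached the level only through a group in which they were high had to differ between groups, so counts over tested members describe and do not support.

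The sorted cells divided the family between the epithelial layers, and St14, Prss8, Spint1 and Spint2 were each higher in luminal cells, by unequal steps. Tmprss2, an androgen-responsive protease of luminal epithelia, read 3408 and 6208 in WT luminal and 90.9 and 90.1 in WT basal cells. In DN-Clim mice it read 3315 and 1535 in luminal and 218 and 55.9 in basal cells. Every luminal array thus stood above every basal array, and the difference basal minus luminal was -5.67 (SE 0.66, adjusted p = 0.000927) in WT and -4.35 (SE 0.66, adjusted p = 0.00337) in DN-Clim.

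Tmprss13, a mosaic protease of stratified and glandular epithelia, gave 1316 and 2011 in WT luminal against 56.1 and 56.6 in WT basal cells, and 1725 and 1794 against 170 and 81.5 in DN-Clim cells. These groups did not overlap either, with differences of -4.85 (SE 0.35, adjusted p = 0.000128) in WT and -3.90 (SE 0.35, adjusted p = 0.000419) in DN-Clim. Tmprss4, a protease known from carcinomas, was dimmer and more variable at 116 and 227 in WT luminal cells, 37.3 and 61.0 in WT basal, 180 and 161 in DN-Clim luminal and 54.0 and 44.6 in DN-Clim basal cells. Its difference was -1.77 (SE 0.39, adjusted p = 0.0129) in WT and -1.80 (SE 0.39, adjusted p = 0.0139) in DN-Clim.

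Matriptase itself was present in both layers. St14 read 2932 and 2790 in WT luminal and 1502 and 1085 in WT basal cells, and 2788 and 2961 in DN-Clim luminal against 1076 and 1012 in DN-Clim basal cells. Its basal values were lower in every pair of arrays, by -1.16 (SE 0.17, adjusted p = 0.00255) in WT and -1.46 (SE 0.17, adjusted p = 0.00123) in DN-Clim. Prostasin (Prss8) read 3111 and 3189 in WT luminal against 627 and 909 in WT basal cells, and 2330 and 3040 against 866 and 524 in DN-Clim cells. Prss8 was therefore lower in basal cells by a similar step in each genotype, -2.06 (SE 0.29, adjusted p = 0.00197) in WT and -1.98 (SE 0.29, adjusted p = 0.00281) in DN-Clim.

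The inhibitors followed the proteases to unequal extents. Spint1 stood at 3212 and 3019 in WT luminal and 512 and 473 in WT basal cells, and at 3466 and 3381 against 707 and 319 in DN-Clim cells, a difference of -2.66 (SE 0.33, adjusted p = 0.00124) in WT and -2.85 (SE 0.33, adjusted p = 0.00117) in DN-Clim. Spint2 was closer to even, at 3166 and 2863 in WT luminal against 1938 and 1818 in WT basal cells and 2861 and 2832 against 1668 and 1539 in DN-Clim cells. Its difference was -0.68 (SE 0.12, adjusted p = 0.00529) in WT and -0.83 (SE 0.12, adjusted p = 0.00288) in DN-Clim. Spink5 was at 39.8 to 59.5 on the sorted and 53.8 to 113 on the laser capture arrays and was not tested.

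On the basal side Prss23, a secreted protease, was the member with the largest step. It read 783 and 1271 in WT basal and 254 and 167 in WT luminal cells, and 1096 and 831 against 128 and 218 in DN-Clim cells. The basal arrays all stood above the luminal arrays, by 2.28 (SE 0.36, adjusted p = 0.00331) in WT and 2.51 (SE 0.36, adjusted p = 0.00272) in DN-Clim. Prss12 (neurotrypsin), Prss57 and Prss16, a thymus-specific protease, were also higher in basal cells, by 1.24, 1.21 and 0.83 in WT and by 1.01, 1.08 and 0.60 in DN-Clim, all at low intensity, with a highest value of 321 for Prss16.

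Altogether 13 of 27 members (48.1%) passed an adjusted p of 0.05 in WT against 33.8% of all 12471 genes tested, 9 of them lower in basal cells (18.3% of all genes) and 4 higher (15.5% of all genes). In DN-Clim cells 15 of 27 members (55.6%) passed, against 30.2% of all genes, with 11 lower in basal cells (17.1% of all genes) and 4 higher (13.1% of all genes). The members not yet named were Hpn, which differed by -0.63 in WT and -1.25 in DN-Clim cells, Tmprss6 (matriptase-2), which passed in WT alone at -0.59, and Prss22, Tmprss11a and Tmprss11f, which passed in DN-Clim alone. Whether the genotypes differ in these steps is the test of the interaction, which Tmprss11a alone passed. Leaving out single arrays left 9 to 12 members called in WT and 9 to 15 in DN-Clim, the low DN-Clim count without DN-Clim basal replicate 1, and Tmprss6 passed in none of the 8 fits.

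**Figure D1:**
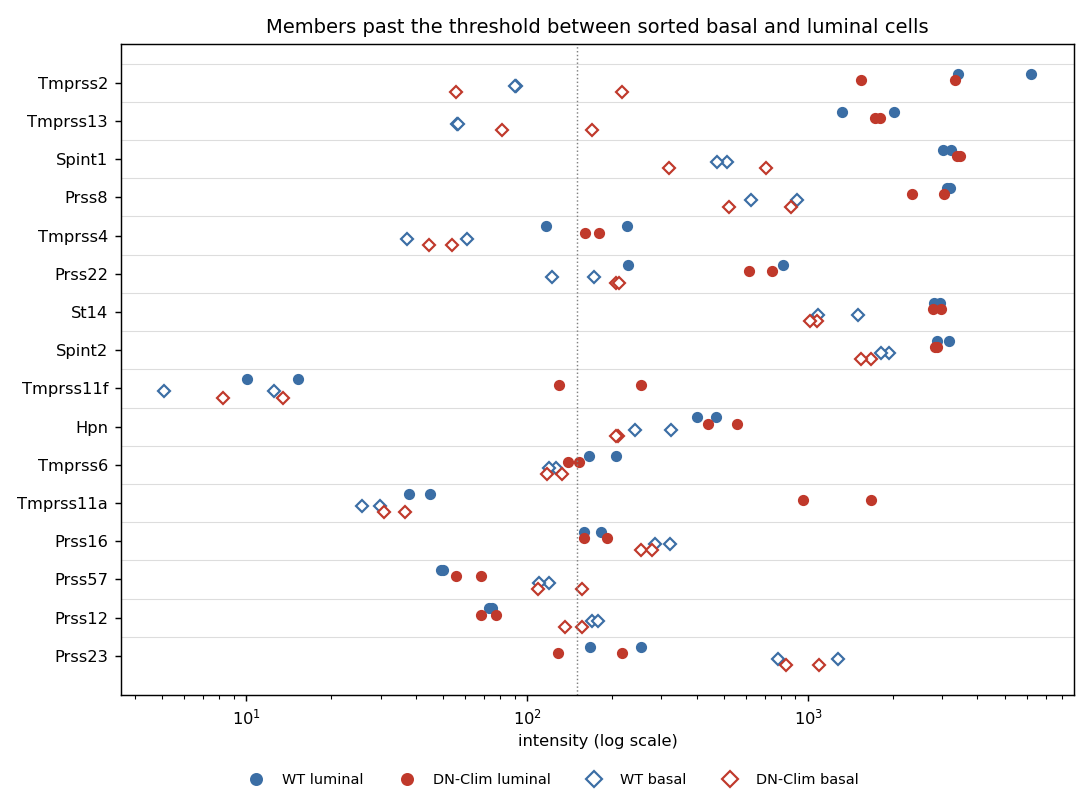
Intensity (log axis) of the 16 members past the threshold between basal and luminal cells in either genotype, with 1 point for each of the 8 sorted arrays and a dotted line at 150. Luminal arrays (filled circles) lie to the left of basal arrays (open diamonds) for Prss16, Prss57, Prss12 and Prss23 and to the right for the others, except that the WT arrays of Tmprss11f overlap, and Tmprss11a and Tmprss11f are high in the DN-Clim luminal arrays alone.

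Within the Tmprss11 group the DN-Clim luminal cells stood apart. The 7 genes of the group lie side by side in RefSeq on mouse chromosome 5, in the order Tmprss11c, Tmprss11d, Tmprss11a, Tmprss11g, Tmprss11f, Tmprss11b and Tmprss11e. The stretches of 250 bases before the start of Tmprss11a and Tmprss11f, which read higher in DN-Clim luminal cells as described next, and of Tmprss11g, the gene between them, which stayed low, are given from RefSeq (GRCm38.p6, minus strand, 5′ to 3′), with capitals on every match to the AP-1 motif TGANTCA or the grainyhead-like motif AACNNGTT on either strand.
Tmprss11a (chr5:86468991-86469240): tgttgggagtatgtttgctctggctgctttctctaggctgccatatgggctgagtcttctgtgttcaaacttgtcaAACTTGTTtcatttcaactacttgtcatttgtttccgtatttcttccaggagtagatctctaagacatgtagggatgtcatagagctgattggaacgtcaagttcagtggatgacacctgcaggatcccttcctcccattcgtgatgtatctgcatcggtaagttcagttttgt
Tmprss11g (chr5:86518601-86518850): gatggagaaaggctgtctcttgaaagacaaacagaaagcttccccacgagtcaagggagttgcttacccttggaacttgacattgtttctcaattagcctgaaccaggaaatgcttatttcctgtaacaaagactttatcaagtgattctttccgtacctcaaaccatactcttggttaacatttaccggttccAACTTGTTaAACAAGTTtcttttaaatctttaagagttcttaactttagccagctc
Tmprss11f (chr5:86632425-86632674): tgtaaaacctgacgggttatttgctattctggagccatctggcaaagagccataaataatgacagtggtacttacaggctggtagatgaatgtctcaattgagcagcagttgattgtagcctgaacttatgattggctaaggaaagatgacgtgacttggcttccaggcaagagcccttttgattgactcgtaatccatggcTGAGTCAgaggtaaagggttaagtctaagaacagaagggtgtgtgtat
AACNNGTT stood in 3.64% and TGANTCA in 6.75% of all 32851 windows of this length in the table. The window held 1 AACNNGTT before Tmprss11a and 1 TGANTCA before Tmprss11f, and that of Tmprss11e was not analysed here. The low Tmprss11g carried 2 AACNNGTT. Among the other low genes of the group, the window held 1 AACNNGTT before Tmprss11b, 1 TGANTCA before Tmprss11d and neither motif before Tmprss11c. A match is a run of letters and not a bound site, and the locus outside these windows was not read.

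Tmprss11a encodes an airway-type trypsin-like protease of stratified epithelia. It read 958 and 1667 in DN-Clim luminal cells, 45.1 and 38.0 in WT luminal cells, 29.8 and 25.8 in WT basal and 30.8 and 36.5 in DN-Clim basal cells. Both DN-Clim luminal arrays therefore lay far above the other 6, which spanned 25.8 to 45.1. The difference DN-Clim minus WT in luminal cells was 4.93 (SE 0.32, adjusted p = 0.00755). Tmprss11a reached the level of 150 on those 2 arrays only and so entered the test through the group in which it was high, which makes the value a description. Tmprss11a was the 1 member called among 27 in that comparison (3.70%), where 7 of 12471 genes (0.0561%) were called.

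Tmprss11f, a neighbor of the same type, was higher on the same arrays at lower intensity: 253 and 130 in DN-Clim luminal cells against 10.1 and 15.3 in WT luminal cells and 5.09 to 13.5 in basal cells. Its difference in luminal cells was 3.87 (SE 1.04) and missed the threshold (adjusted p = 0.443), while the step between DN-Clim basal and luminal cells passed at -4.10 (SE 1.04, adjusted p = 0.0247). Tmprss11f reached 150 on a single sorted array, DN-Clim luminal replicate 1, and that call was kept in 4 of 8 fits that left out 1 array. The corresponding step of Tmprss11a was -5.23 (SE 0.32, adjusted p = 0.000104) in DN-Clim and -0.58 (SE 0.32, adjusted p = 0.217) in WT cells. Tmprss11e (DESC1), a protease known from skin, read 148 and 83.9 in DN-Clim luminal cells against 25.2 to 41.3 on the other 6 sorted arrays, below the level for a test. The other 4 genes of the group stayed at 18.1 to 68.3 on all 8 sorted arrays. Of these, Tmprss11g read 31.3 and 34.0 in DN-Clim luminal cells, slightly above the 18.1 to 27.2 of the other 6 arrays.

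A direct test asked whether the genotype difference was larger in luminal than in basal cells. For Tmprss11a the difference of differences was 4.66 (SE 0.46, adjusted p = 0.0421), 1 of 27 members against 0.0481% of all genes. This call was lost in each of the 8 fits that left out 1 array, with adjusted p of 0.0712 to 0.229, and also under quantile scaling (adjusted p = 0.0599) and with equal mean and variance on each array (adjusted p = 0.0556), while the call in luminal cells was kept in 7 of those 8 and missed without DN-Clim luminal replicate 2 (adjusted p = 0.0568). The same difference of differences was 0.30 (SE 0.24) for St14, 0.19 (SE 0.47) for Spint1, 0.15 (SE 0.17) for Spint2 and -0.078 (SE 0.41) for Prss8, none past the threshold.

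**Figure D2:**
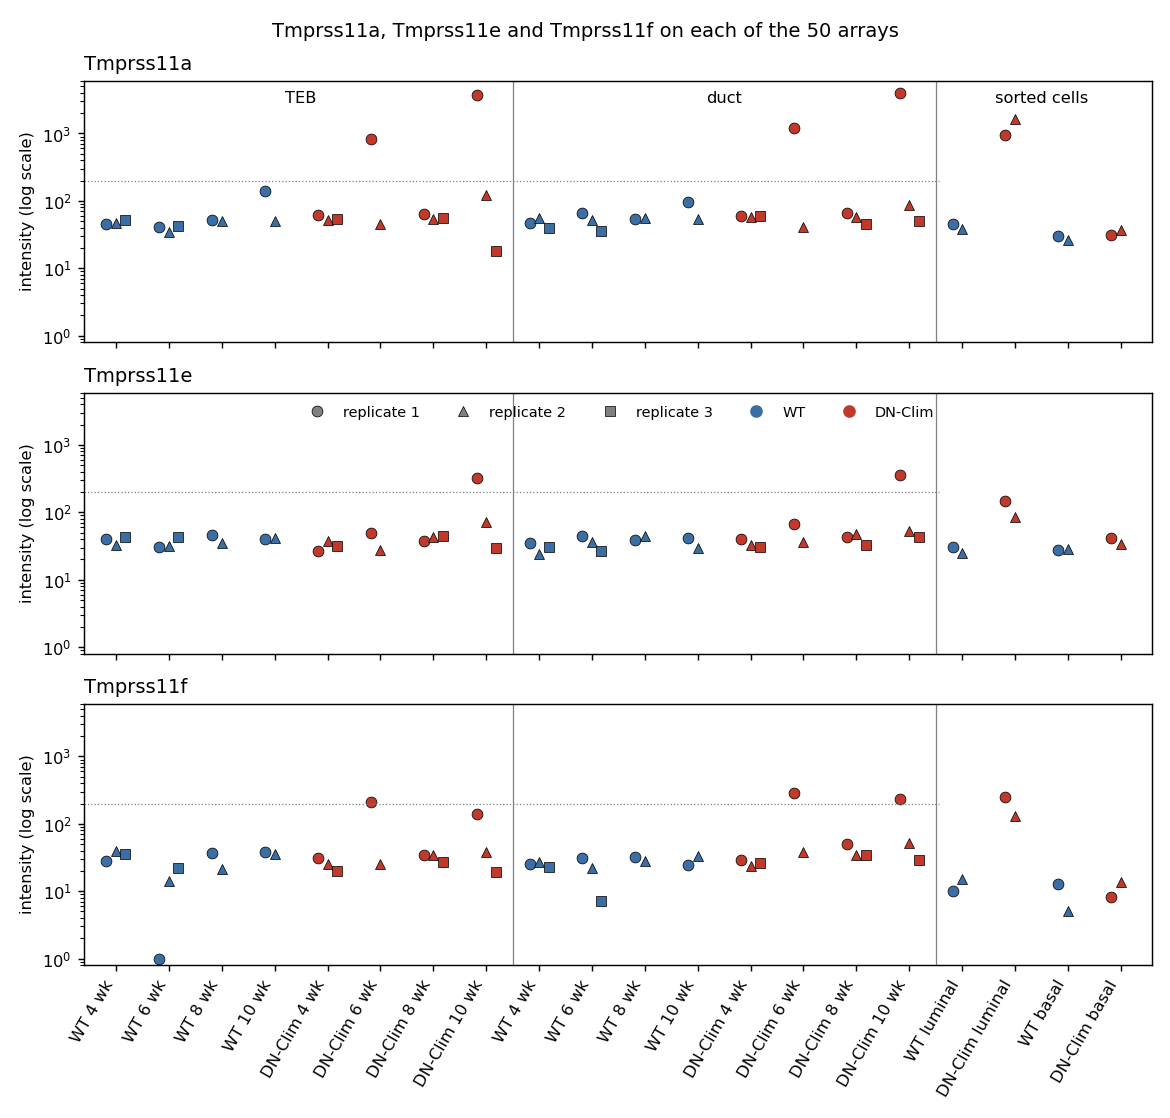
Intensity (log axis) of Tmprss11a, Tmprss11e and Tmprss11f on each of the 50 arrays by structure or cell type, genotype and age, with marker shape for the replicate number, a dotted line at 200 and values under 1 drawn at 1. Both DN-Clim luminal arrays and the TEB and duct of DN-Clim replicate 1 at 6 and at 10 weeks stand above the other arrays for Tmprss11a.

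In the captured TEBs and ducts Tmprss11a was raised on 4 arrays. Replicate 1 of the DN-Clim mice at 6 weeks read 834 in the TEB and 1195 in the duct, and replicate 1 at 10 weeks 3776 in the TEB and 4041 in the duct. The other 38 laser capture arrays spanned 18.0 to 140. In all, 2 of 11 DN-Clim mice exceeded 200, both of them in TEB and duct, and 0 of 10 WT mice did. The mean difference DN-Clim minus WT was 0.99 (SE 0.71, adjusted p = 0.518) in the TEB and 1.10 (SE 0.66, adjusted p = 0.247) in the duct, and without these 2 mice it was -0.06 (adjusted p = 0.963) and -0.01 (adjusted p = 0.982).

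Tmprss11f was raised on the same 4 arrays, at 213 in the TEB and 291 in the duct at 6 weeks and at 141 and 235 at 10 weeks, where the other 38 arrays did not pass 52.0. Tmprss11e was raised in the 10-week mouse, at 328 in the TEB and 356 in the duct, whereas in the 6-week mouse it read 49.5 and 67.2, within the span of 23.9 to 72.0 on the other 38 arrays. Tmprss11b, Tmprss11c, Tmprss11d and Tmprss11g did not exceed 89.4 on any laser capture array. The mean genotype difference of Tmprss11f was 0.87 (SE 0.66, adjusted p = 0.543) in the TEB and 1.11 (SE 0.41, adjusted p = 0.0708) in the duct.

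The summed level of the epidermis and cornified envelope list, which also holds the squamous keratins Krt4 and Krt13, was higher on the arrays with raised Tmprss11a. The summed intensity of the 15 list genes measured was 5942 in the TEB and 6534 in the duct of the 6-week mouse. In the 10-week mouse it was 14560 and 16234, against 1308 to 5453 on the other 38 laser capture arrays. In DN-Clim luminal cells it was 17075 and 23349, against 1691 to 6537 on the other 6 sorted arrays. On all 4 arrays of these mice 2 of the 15 genes, Krt4 (860 to 2898) and Krt77 (395 to 3706), exceeded the other laser capture arrays, and 7 of the 15 exceeded the other sorted arrays in both DN-Clim luminal samples, among them Ivl (1865 to 4419) and Sprr1a (12040 to 12230), which made up much of the luminal sum. Between the genotypes 1 of 9 list genes tested was called higher in luminal cells, where 6 of all 12471 genes were. In the TEB it was 1 of 10, where 51 of all 13362 genes were, and in the duct 1 of 10, where 8.52% of all genes were. The keratins that define the suprabasal layers of skin stayed within the span of the other laser capture arrays in these mice, with Krt1 at 360 to 596 against 255 to 699 and Krt10 at 134 to 210 against 69.4 to 222. In DN-Clim luminal cells Krt1 read 484 and 524, above the 402 to 480 of the other 6 sorted arrays, and Krt10 read 152 and 160, within their span. The part of these cells or genes in the Tmprss11 values was not tested.

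**Figure D3:**
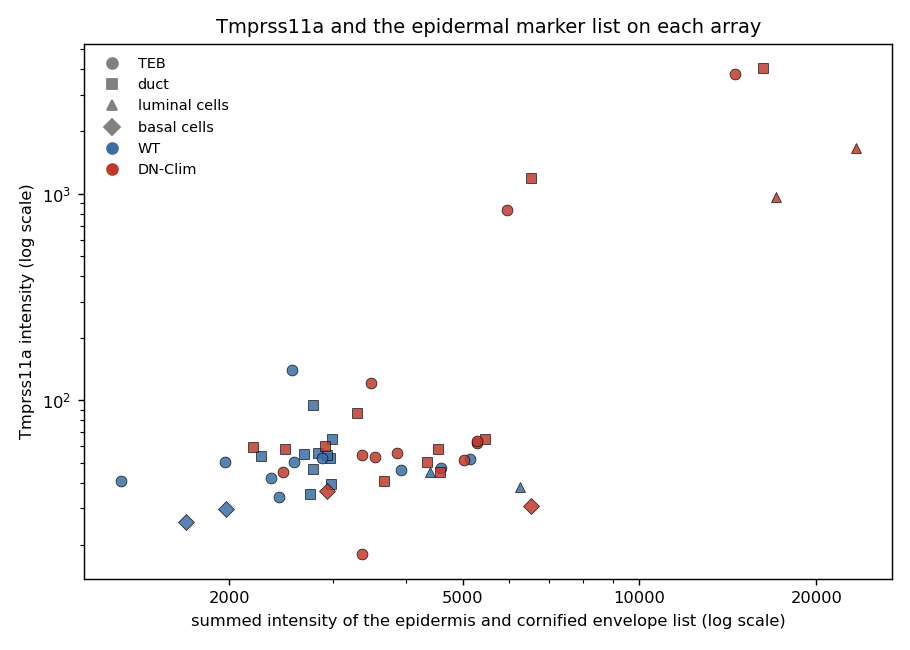
Tmprss11a intensity against the summed intensity of the 15 measured genes of the epidermis and cornified envelope list, both on log axes, with 1 point for each of the 50 arrays. The 6 arrays with Tmprss11a over 800 lie at sums of 5942 to 23349, and the highest sum among the other arrays is 6537.

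Over the 4 ages of puberty the steadiest change in the family was a rise of Tmprss2. In WT TEBs it read 2935, 2106 and 1718 at 4 weeks, 3956, 4374 and 4545 at 6 weeks, 5615 and 4497 at 8 weeks, and 6452 and 5598 at 10 weeks. No array of 6 weeks or later overlapped with those of 4 weeks, and the means rose by 1.45 from 4 to 10 weeks (F test over ages, adjusted p = 0.00300). In WT ducts the values were 4060, 3023 and 2733 at 4 weeks, 4495, 4322 and 4301 at 6 weeks, 5295 and 6340 at 8 weeks, and 7363 and 5565 at 10 weeks, a rise of 0.99 (adjusted p = 0.00720).

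DN-Clim glands showed a rise of Tmprss2 as well. Their TEBs read 2738, 2413 and 2572 at 4 weeks, 2948 and 4211 at 6 weeks, 4885, 4221 and 4595 at 8 weeks, and 4750, 5143 and 5367 at 10 weeks. The means rose by 0.98 (adjusted p = 0.00469), and the 4-week arrays again lay below all others. In DN-Clim ducts the values were 4115, 3376 and 3867 at 4 weeks, 3465 and 4599 at 6 weeks, 5264, 5596 and 5185 at 8 weeks, and 4931, 5928 and 7741 at 10 weeks. That rise was 0.69 (adjusted p = 0.0424), with overlap between 4 and 6 weeks.

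Leaving out each array in turn kept the rise of Tmprss2 past the threshold in all 10 fits of the WT TEB, all 10 of the WT duct and all 11 of the DN-Clim TEB, but in 3 of the 11 of the DN-Clim duct. In bulk tissue, fewer cells of a type and less RNA per cell cannot be told apart, and Tmprss2 is luminal in the sorted cells. Among 12 luminal markers tested, 1 changed with age in the WT TEB, 3 in the WT duct and none in either DN-Clim structure, and among 12 basal markers 9, 6, 3 and 3 changed, of which 4, 6, 2 and 3 were higher at an earlier age. The summed intensity of the 12 basal markers ran from 14818 to 20913 at 4 weeks and from 19722 to 20135 at 10 weeks in the WT TEB, and from 26411 to 30143 and from 23636 to 24843 in the WT duct. In the DN-Clim duct it ran from 23806 to 27107 at 4 weeks and from 16115 to 21416 at 10 weeks. The summed luminal markers there ran from 39728 to 48384 and from 53001 to 60021. In the DN-Clim TEB the basal sums were 14497 to 17265 and 13815 to 19586, and the luminal sums 39598 to 44580 and 43744 to 56033. In WT the luminal sums of these ages overlapped in both structures. The part of these markers in the rise was not tested.

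Prss23 also rose with age in WT mice. Its TEB values were 688, 583 and 531 at 4 weeks, 811, 753 and 876 at 6 weeks, 1086 and 1051 at 8 weeks, and 924 and 844 at 10 weeks, with every later array above those of 4 weeks. The difference between the 8-week and 4-week means was 0.84 (adjusted p = 0.00535). In WT ducts Prss23 read 904, 844 and 799 at 4 weeks, 827, 770 and 917 at 6 weeks, 1134 and 1102 at 8 weeks, and 1000 and 1010 at 10 weeks. There the step from 6 to 8 weeks was 0.42 (adjusted p = 0.0239), kept in 6 of 10 fits that left out 1 array. Markers of other cell types were higher at 8 than at 4 weeks in the same WT TEBs: the summed intensity was 11177 and 11223 against 4331 to 4765 for the endothelial list, 9116 and 10790 against 4564 to 5105 for the macrophage list, and 37473 and 44865 against 23774 to 28233 for the adipocyte list. Their part in the values of Prss23 was not tested.

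Prostasin (Prss8) rose in the WT TEB alone among the 4 series, which is no test of a difference between them. It read 910, 996 and 800 at 4 weeks, 1259, 1290 and 1683 at 6 weeks, 1142 and 1114 at 8 weeks, and 1337 and 1256 at 10 weeks, and the difference between 6 and 4 weeks was 0.64 (adjusted p = 0.0202, kept in 8 of 10 fits that left out 1 array). In the other series its range of age means was 0.090 in the WT duct (adjusted p = 0.971), 0.35 in the DN-Clim TEB (adjusted p = 0.222) and 0.048 in the DN-Clim duct (adjusted p = 0.989).

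Tmprss13 and the inhibitor Spint1 passed the test of age in DN-Clim mice. Tmprss13 read 658, 523 and 555 in DN-Clim TEBs at 4 weeks and 1385, 939 and 855 at 10 weeks, a rise of 0.85 (adjusted p = 0.0247). In DN-Clim ducts it read 844, 669 and 774 at 4 weeks and 1387, 1060 and 1216 at 10 weeks, a rise of 0.68 (adjusted p = 0.0399). The 10-week arrays lay above the 4-week arrays in both structures, and the calls were kept in 9 of 11 fits that left out 1 array in the TEB and in 2 of 11 in the duct.

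Spint1 read 1035, 1097 and 986 at 4 weeks and 1925, 1468 and 1363 at 10 weeks in DN-Clim TEBs, a rise of 0.59 (adjusted p = 0.0420). In DN-Clim ducts it went from 1128, 1082 and 1280 to 2004, 1595 and 1793, a rise of 0.63 (adjusted p = 0.0451). Its age groups of 4 and 10 weeks did not overlap in either structure, yet only 3 of 11 fits in the TEB and 2 of 11 in the duct kept the call when 1 array was left out. In WT mice Spint1 differed between ages by 0.23 in the TEB (adjusted p = 0.458) and 0.36 in the duct (adjusted p = 0.243). Tmprss13 and Spint1 were both luminal in the sorted cells, and the part of the marker sums above in their rise was not tested.

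St14 and Spint2 passed in none of the 4 series, with age means that spanned 0.14 to 0.31 for St14 and 0.24 to 0.36 for Spint2. The count in the WT TEB was 5 without replicate 1 at 6 weeks, and in the WT duct 6 without replicate 1 at 10 weeks. In all, 3 of 36 members (8.33%) changed with age in the WT TEB against 25.6% of all 13362 genes tested, 2 of 36 (5.56%) in the WT duct against 24.6%, 3 of 36 in the DN-Clim TEB against 14.3%, and 3 of 36 in the DN-Clim duct against 11.3%. The members' shares lay below those of all genes in each series. Whether the course with age differed between the genotypes was tested as an interaction, chosen after the data had been seen: limma called 0 of 36 members in the TEB, where 0.00748% of all genes passed, and 0 of 36 in the duct, where 0.0374% passed. At an unadjusted p under 0.05 limma gave 4 members and 1376 of all 13362 genes in the TEB. In the duct it gave 2 members and 1525 genes.

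**Figure D4:**
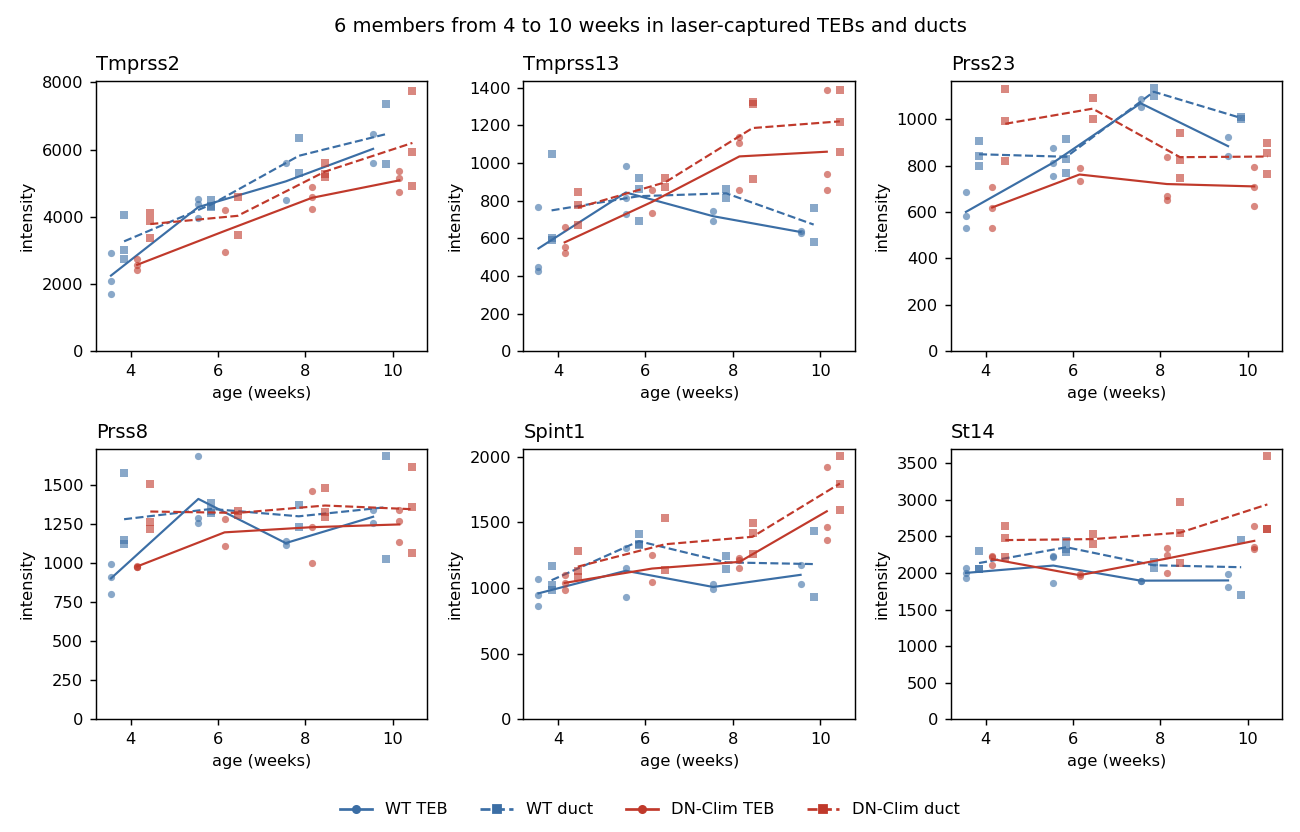
Intensity of 6 members at 4, 6, 8 and 10 weeks, with 1 point per array and lines through the group means; the points of the 4 groups are set slightly apart along the age axis. Tmprss2 rises in all 4 series, while Tmprss13 and Spint1 end higher in DN-Clim than in WT at 10 weeks.

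Prss23 was lower in the TEB than in the duct of all 10 WT mice, with a mean difference of -0.20 (SE 0.045, adjusted p = 0.0484). It was the 1 member called among 36 (2.78%), against 0.876% of all genes and 0.681% in that direction. In the same comparison 6 of 12 basal markers were lower in the TEB, and their part in the value was not tested. The call was kept in 4 of 20 fits that left out 1 array and was absent without the mouse as a block. At 4 weeks the difference was -0.51 (SE 0.080, adjusted p = 0.00382), and 444 genes were called in all at that age. At 6, 8 and 10 weeks it was -0.043, -0.065 and -0.19, where 0 genes passed. Also at 4 weeks, Tmprss2 differed by -0.55 (SE 0.15, adjusted p = 0.0550), Prss8 by -0.49 (SE 0.14, adjusted p = 0.0717) and Tmprss13 by -0.45 (SE 0.19, adjusted p = 0.230).

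St14, Prss8 and their inhibitors did not pass over the 4 ages. St14 differed by -0.13 (SE 0.052, adjusted p = 0.313) and was lower in the TEB of 9 of 10 mice. Spint1 differed by -0.18 (SE 0.068, adjusted p = 0.258) and Spint2 by -0.12 (SE 0.053, adjusted p = 0.355), each lower in 9 of 10 mice. Prss8 differed by -0.17 (SE 0.079, adjusted p = 0.432) and was lower in 8 of 10.

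Against WT, 3 of 36 members (8.33%) were called higher in the DN-Clim duct, where 8.52% of all genes were. St14 ran from 1701 over a median of 2217 to 2459 in the 10 WT ducts and from 2140 over 2541 to 3603 in the 11 DN-Clim ducts, overlapping groups with a mean difference over the ages of 0.26 (SE 0.078, adjusted p = 0.0369). Tmprss13 ran from 582 over 789 to 1050 in WT and from 669 over 922 to 1387 in DN-Clim ducts, a difference of 0.39 (SE 0.11, adjusted p = 0.0278). Tmprss4 ran from 104 over 140 to 204 in WT and from 133 over 186 to 240 in DN-Clim ducts, a difference of 0.41 (SE 0.12, adjusted p = 0.0353). The groups overlapped for each, and the calls were kept in 7, 15 and 10 of 21 fits that left out 1 array for St14, Tmprss13 and Tmprss4.

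The inhibitors lay on the same side just outside the threshold, Spint1 by 0.23 (SE 0.077, adjusted p = 0.0504) and Spint2 by 0.19 (SE 0.067, adjusted p = 0.0623), while Prss8 differed by 0.031 (SE 0.093, adjusted p = 0.838). At 4, 6, 8 and 10 weeks Tmprss13 differed by 0.075, 0.13, 0.48 and 0.86 (SE 0.20 to 0.22), Spint1 by 0.13, -0.041, 0.22 and 0.63 (SE 0.14 to 0.16) and St14 by 0.20, 0.067, 0.26 and 0.51 (SE 0.14 to 0.16). The test of age by genotype in the duct called none of the 3 (adjusted p = 0.475 for Tmprss13, 0.431 for Spint1 and 0.707 for St14). No single age passed for these genes after adjustment, with adjusted p at 10 weeks of 0.0921 for Tmprss13, 0.0899 for Spint1 and 0.133 for St14. At 10 weeks, WT duct replicate 1 had a skeletal muscle marker sum of 33154, where no DN-Clim duct passed 1295. Replicate 2 had sums of 14186.5 for endothelial and 3448 for lymphocyte markers, where no DN-Clim duct passed 9837 and 2064. The luminal marker sums were 54795 and 36222 in these WT ducts and 53001 to 60021 in the DN-Clim ducts of that age. The part of these markers in the differences was not tested.

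A second group of members was slightly lower in DN-Clim ducts, all of them near the level of detection. Klk4, a kallikrein of enamel and prostate, ran from 138 over 159 to 198 in WT and from 115 over 134 to 165 in DN-Clim ducts (difference -0.29, SE 0.083, adjusted p = 0.0326). Klk4 had reached 200 on a single array, WT TEB replicate 1 at 6 weeks. Prss47, which reached 200 only on WT duct replicate 3 at 6 weeks and so was tested through the group in which it was higher, ran from 139 over 161 to 204 in WT and from 107 over 142 to 165 in DN-Clim ducts (difference -0.28, SE 0.079, adjusted p = 0.0286). Tmprss5 (spinesin, of the nervous system), Prss27 (marapsin), Prss54 and Tmprss6 differed by -0.23, -0.22, -0.19 and -0.19, Tmprss5 having reached 200 on 1 array, WT TEB replicate 2 at 8 weeks. The groups overlapped for each of the 9 members.

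In total 9 of 36 members (25.0%) were called in the duct against 14.7% of all genes, 3 higher (8.52% of all genes) and 6 lower (6.22% of all genes). The count depends on single arrays: it ran from 0 to 14 when 1 duct array was left out, with 0 without WT duct replicate 1 at 8 weeks or replicate 2 at 10 weeks and 14 without WT duct replicate 2 at 4 weeks, falling to 0 also when both ducts with conflicting labels were omitted, and to 0 when the 8-week mice were. Calls among all genes fell too, to 109 without the 8-week mice in place of 1970. Beside the member values, 5 of 12 basal markers were lower and 1 of 12 luminal markers was higher in DN-Clim ducts, and their part in the differences was not tested.

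In the TEB limma called 0 of 36 members, where 1.16% of all genes passed. At an unadjusted p under 0.05 there were 10 of the 36 members and 2218 of all 13362 genes. St14 ran from 1805 over a median of 1965 to 2230 in WT and from 1955 over 2237 to 2646 in DN-Clim TEBs, a difference of 0.15 (SE 0.047, adjusted p = 0.122). Spint1 differed by 0.23 (SE 0.073, adjusted p = 0.136), Spint2 by 0.13 (SE 0.051, adjusted p = 0.211), Prss8 by -0.014 (SE 0.072, adjusted p = 0.942) and Tmprss13 by 0.32 (SE 0.11, adjusted p = 0.175). The test of the TEB difference against the duct difference called 0 of 36 members and 0 of all 13362 genes, so that the structures were not shown to differ. At an unadjusted p under 0.05 it gave 1 member and 1006 genes. For St14, Spint1, Spint2 and Prss8 the difference of differences was -0.10 (SE 0.070), -0.0069 (SE 0.083), -0.059 (SE 0.064) and -0.045 (SE 0.095).

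**Figure D5:**
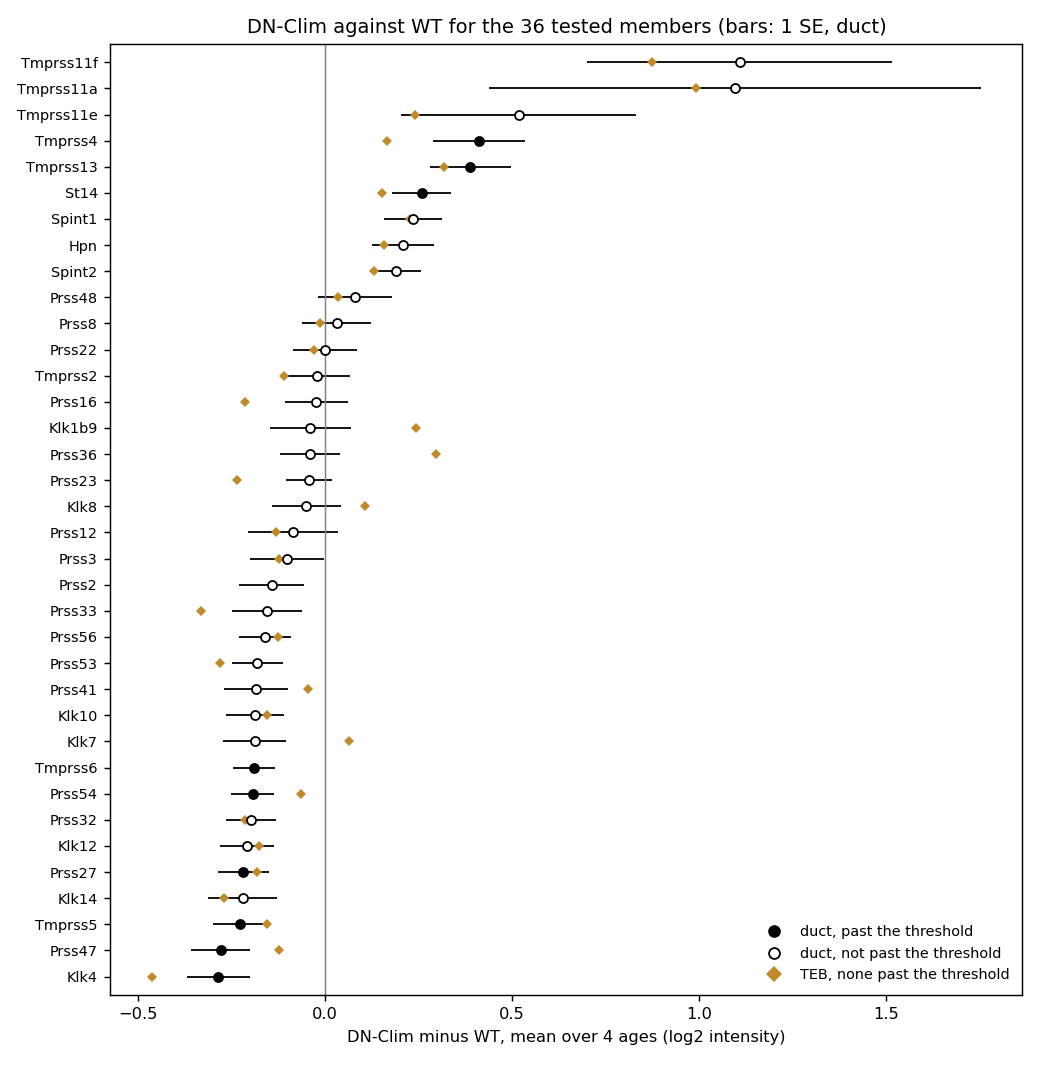
Difference DN-Clim minus WT in log2 intensity, averaged over the 4 ages, for the 36 tested members, with circles and bars (1 SE) for the duct and diamonds for the TEB. Filled circles mark the 9 members past the threshold in the duct, and no diamond is past it.

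In sorted basal cells, where the transgene is expressed, limma called 0 of 27 members between the genotypes against 0.0802% of all genes. The Cyber-T test called 0 members as well, where it called 612 of all 12471 genes. At an unadjusted p under 0.05 limma gave 3 members and 1688 genes. St14 differed by -0.29 (SE 0.17, adjusted p = 0.485), Spint1 by -0.053 (SE 0.33, adjusted p = 0.959), Spint2 by -0.23 (SE 0.12, adjusted p = 0.438) and Prss8 by -0.17 (SE 0.29, adjusted p = 0.822). Tmprss13 differed by 1.06 (SE 0.35, adjusted p = 0.324) at values of 56.1 to 170. In luminal cells the same genes differed by 0.0066 (SE 0.17) for St14, 0.14 (SE 0.33) for Spint1, -0.081 (SE 0.12) for Spint2 and -0.24 (SE 0.29) for Prss8, with adjusted p of 0.799 or more.

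The kallikreins were low throughout. Of the 21, 7 reached 200 on any laser capture array and 5 reached 150 on any sorted array, and none did so on all arrays of either set. Klk10, lost in many breast tumors, ran up to 288 on the laser capture arrays, and in the sorted cells to 341 in DN-Clim luminal replicate 2 against 125 to 176 on the remaining arrays. Klk7, the chymotrypsin-like enzyme of skin shedding, ran from 15.7 to 313 in laser capture and from 124 to 181 in sorted samples, and its trypsin-like partner Klk5 did not exceed 96.8. In the limma tests on all arrays Klk4 in the duct was the 1 kallikrein called. Under other settings Cyber-T called Klk1b8 and Klk1b11 between sorted WT basal and luminal cells, Klk12 was called in the duct under quantile scaling and with a common mean and variance, and leaving out single arrays brought calls of Klk1b8, Klk10, Klk12 and Klk14.

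Prss22 (tryptase epsilon) was the remaining Prss gene that passed a test. It read 229 and 812 in WT luminal, 173 and 122 in WT basal, 744 and 617 in DN-Clim luminal and 206 and 212 in DN-Clim basal cells. Luminal arrays stood above basal arrays in both genotypes, at -1.70 (SE 0.53, adjusted p = 0.0487) in DN-Clim and -1.57 (SE 0.53, adjusted p = 0.0571) in WT, and the call was kept in 2 of 8 fits that left out 1 array. Of the 38 Prss genes 20 reached neither level, at no more than 192 in laser capture and 131 in sorted samples.

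The remaining members over the level were dim, and none of them was called by limma on all arrays. In the duct Prss32 was called with a common mean and variance and with no filter, and Tmprss3 with no filter. Leaving out single arrays brought calls of Prss32 and Prss53 in the duct between genotypes, and of Prss36 and Prss48 with age in WT samples. In the laser capture set Klk8, Klk12, Klk14 and Klk1b9 reached at most 246, 211, 214 and 214, and the trypsins Prss2 and Prss3 234 and 268. Prss32, Prss33, Prss36, Prss41, Prss48, Prss53 and Prss56 reached between 200.1 (Prss32) and 298 (Prss53). Prss56, known from the eye, was at 190 to 263 on all sorted arrays, and Tmprss3, known from hearing loss, reached 157 in the sorted cells and 197 in the laser capture set. Klk4 and Prss3 had their highest values, 348 and 268, on the outlying WT TEB array at 6 weeks.

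Genes on which these proteases act changed with age as well. Of 18 receptors and substrates of trypsin-like proteases 13 were tested in the laser capture set, and 8 changed with age in the WT TEB, 10 in the WT duct, 6 in the DN-Clim TEB and 4 in the DN-Clim duct, beside 25.6%, 24.6%, 14.3% and 11.3% of all genes. The subunits of the epithelial sodium channel, which prostasin and matriptase activate, rose together from 4 to 8 weeks in the WT TEB, Scnn1b by 2.39, Scnn1a by 1.35 and Scnn1g by 1.34 (adjusted p = 0.00109, 0.000747 and 0.0149). The thrombin receptor F2r fell from 4 to 8 weeks, with -1.36 in the WT TEB (adjusted p = 0.0103) and -1.21 in the DN-Clim TEB (adjusted p = 0.0407). In the DN-Clim duct 4 of the 13 were higher than in WT (8.52% of all genes), with 0.60 (SE 0.086, adjusted p = 0.00133) for Hgf, whose product is cleaved by proteases of this kind, 0.29 (SE 0.052, adjusted p = 0.00462) for Cdcp1 and 0.26 (SE 0.066, adjusted p = 0.0194) for Cldn7.

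In the sorted cells some of these partners were higher in basal and others in luminal cells. Among 12 tested, 4 were higher in WT basal cells (15.5% of all genes), led by Hgf at 7.71 (SE 0.32), Plat at 4.96 (SE 0.55) and Plau at 4.00 (SE 0.74), the last 2 being plasminogen activators. Another 3 were higher in WT luminal cells (18.3% of all genes), Cldn7, Scnn1a and Scnn1b at -4.75 (SE 1.06), -3.72 (SE 0.61) and -2.98 (SE 0.73). In DN-Clim cells 4 were higher and 4 lower in basal cells, beside 13.1% and 17.1% of all genes. Of 8 serine protease inhibitors outside the family rule 5 were higher and 2 lower in basal cells in each genotype, beside the same shares of all genes. In WT these were Serpina3n at 7.04 (SE 0.88), Slpi at 4.34 (SE 0.49) and Serping1 at 3.56 (SE 0.67) among the higher, and Wfdc2 at -4.65 (SE 0.48) and Wfdc18 at -3.98 (SE 0.64). The summed fibroblast and matrix markers were also higher in basal cells, at 5990 and 8675 against 1914 and 1519 in WT luminal cells. In DN-Clim they were 9802 and 8380 against 4910 and 3233. Their part in the basal values of these genes and of Prss23 was not tested.

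Those inhibitors also followed age in WT mice, where 5 of 8 changed in the TEB and 7 of 8 in the duct, against 2 and 1 in the DN-Clim TEB and duct, beside 25.6%, 24.6%, 14.3% and 11.3% of all genes. Markers of other cell types were also higher at a later age in the WT TEB and duct, 8 and 7 of 8 endothelial, 7 and 7 of 8 adipocyte and 6 and 3 of 8 macrophage markers tested, and their part in these values was not tested. Serping1, the inhibitor of the complement protease C1, rose from 4 to 8 weeks by 2.79 in the WT TEB (adjusted p = 0.000175) and by 1.99 in the WT duct (adjusted p = 0.000578), while Wfdc18 fell by 2.63 and 1.86 on the log2 scale (adjusted p = 0.0104 and 0.0117). In the DN-Clim duct Slpi, the secretory leukocyte protease inhibitor, differed from WT by -0.94 (SE 0.21, adjusted p = 0.0123), Serpinb6a differed by -0.29 (SE 0.059, adjusted p = 0.00833) and Wfdc18 by 0.61 (SE 0.18, adjusted p = 0.0346). Whether the course of these genes differed between the genotypes was tested in the same interaction fits, which called 0 of the 8 in either structure.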

How the data were processed

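RNA from laser-captured TEBs and ducts and from sorted basal and luminal cells had been hybridised to 1-colour whole-transcript mouse arrays. The deposited values are array intensities on a linear scale, which the authors summarised per probe set with PLIER (no version was given in the sources used here). They were floored at 1 and analysed as log2 without further scaling.

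Genes with 1 symbol were kept with their brightest probe set, and tested where any array reached 200 (laser capture) or 150 (sorted). limma 3.58.1 in R 4.3.3 was fitted across all such genes (lmFit, eBayes with trend), with Benjamini-Hochberg adjustment and a threshold of 0.05. Change with age was an F test over 4 ages. DN-Clim was set against WT as the mean of the differences at each age. The mouse was a random block where TEB and duct were compared: same-numbered TEB and duct were taken as 1 mouse, which neither the labels nor the methods state. Their deviations correlated over 0.1 in 20 of 21 pairs, not all of them independent. Sorted basal and luminal cells of a number correlated at 0.22 and 0.29, and the main fits of the sorted cells used no block. WT and DN-Clim samples share only a number.

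Members called in any comparison and members over the filter were named, with St14, Spint1, Spint2, Prss8 and Spink5 in every comparison and at most 3 partner genes a direction. The members and gene lists were chosen with earlier results of these data known. Promoter windows of 250 bases came from RefSeq (GRCm38.p6), which held 64 of the 81 members. The scripts were tested on simulated data. Samples were grouped by their titles. Alternatives were quantile scaling, a common mean and variance per array, no filter, a floor of 32, the mean of all probe sets, Cyber-T (window 101, confidence 10), the replicate number or the mouse as a block, and leaving out arrays.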

Additional observations from a re-analysis of the deposited data

Results flagged for a closer look

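Tmprss11a stands here because its genotype difference in luminal cells was tested against that in basal cells. It reached the level of 150 on the 2 DN-Clim luminal arrays only, so it entered the test through the group in which it was high and the values are a description. DN-Clim minus WT was 4.93 (SE 0.32) in luminal and 0.27 (SE 0.32) in basal cells, a difference of 4.66 (SE 0.46, adjusted p = 0.0421 by limma), with 2 arrays per group. Both DN-Clim luminal arrays (958 and 1667) lay above the other 6 (25.8 to 45.1). The adjusted p ran from 0.0712 to 0.229 when 1 array was left out.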

How the results depend on the processing

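Apart from single left-out arrays, counts of members past the threshold stayed within 1.5 times of the reported value in 93 instances and moved further in 15. Values of single genes kept their direction and side of the threshold in 703 instances, lost the threshold in 48, gained it in 5 and changed sign in 10. In the WT duct 1 member in place of 2 changed with age with the replicate block, and 1 without the arrays whose labels conflict. In the DN-Clim duct it was 1 in place of 3 with the replicate block, and 1 without both mice high in Tmprss11a, an alternative chosen after seeing the data, as were the tests of age by genotype and the crossed block below. Prss23 between WT TEB and duct was lost (0 members) with no filter, with no replicate block, without the conflicting arrays and without the 8-week arrays. Against WT, the DN-Clim duct had 14 members with a common mean and variance and 14 with no filter, all 9 among them, but 0 without the conflicting arrays and 0 without the 8-week arrays. Between the genotypes in sorted luminal cells Cyber-T called 2 members, Tmprss11a and Tmprss11f, and 165 of all genes. There limma called 1 member and 7 of all genes. For the larger luminal difference of Tmprss11a, 0 members were called under quantile scaling and 0 with a common mean and variance. The causes were not tested.

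Signs turned for small differences. DN-Clim minus WT for Prss8 in the TEB was 0.0067 with a common mean and variance and 0.029 without both high mice, and in the duct -0.039 without the conflicting arrays. Tmprss11a without both high mice was -0.063 in the TEB and -0.0078 in the duct. TEB minus duct for Spint1 was 0.032 under quantile scaling, 0.0047 with a common mean and variance and 0.074 without the conflicting arrays, and for Prss8 0.019 without them. Spint1 in sorted basal cells was 0.035 under quantile scaling.

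Leaving out 1 array at a time gave 2 to 5 members with age in the WT TEB, 1 to 6 in the WT duct, 1 to 3 in the DN-Clim TEB and 0 to 2 in the DN-Clim duct. It gave 0 to 2 between WT TEB and duct, 0 to 14 for DN-Clim in the duct, 9 to 12 and 9 to 15 between sorted WT and DN-Clim layers, 0 to 2 for DN-Clim in luminal cells and 0 for the larger luminal difference. Prss8 then ran from -0.047 to 0.022 in the TEB, -0.059 to 0.12 in the duct, -0.13 to 0.040 for TEB minus duct, -0.53 to 0.20 in sorted basal cells and -0.44 to 0.28 for luminal minus basal. Spint1 ran from -0.075 to 0.062 for TEB minus duct, -0.63 to 0.52 in sorted basal cells and -0.39 to 0.76 for luminal minus basal, and St14 from -0.037 to 0.050 in sorted luminal cells. Replicate blocks (the mouse between layers, the number between genotypes) gave 14 members in sorted WT and 15 in sorted DN-Clim cells and changed no other call there. Exchanging the DN-Clim numbers gave 0 members in sorted basal cells. Among all genes DN-Clim against WT in the TEB had 32.9% of calls higher, against 51.3% under quantile scaling and 63.3% with a common mean and variance, and in the duct 57.8%, against 45.4% under quantile scaling and 45.1% with no filter. With 2 or 3 arrays per group and many members near background, small differences could not be resolved.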

Other observations

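Among the Klk1-related kallikreins, near-identical genes whose transcripts cannot be told apart here, Klk1b8 read 1115 and Klk1b11 225 in WT luminal replicate 1, where the other sorted arrays did not exceed 37.8 and 33.1. Klk1b5 (150), Klk1b1 (109) and Klk1b24 (84.8) also had their highest sorted value on that array. The summed intensity of the salivary gland list, tissue in which these kallikreins are abundant, was 702 to 712 in WT luminal cells and 611 to 752 in basal cells of both genotypes. The 5 genes were chosen after their values had been seen, and 1 array allows no test.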
